A study of Homo sapiens with 6 samples.

Results

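The mitosis and spindle genes described here are 44 human genes whose products carry a cell through mitosis: CDK1 and its cyclins, the mitotic kinases, the spindle checkpoint, the kinetochore, the chromosomal passenger complex, the spindle motors, the cytokinesis machinery, and 2 genes widely used to mark dividing cells, MKI67 and TOP2A. They were chosen by name and not by their levels, though with earlier results of these data known. All 44 were found among the 60671 annotated genes of the expression matrix. RNA-seq was performed on the tumor core (TC) and the tumor margin (TM) of xenografts, with 3 samples of each zone. All 6 samples came from unmodified (WT) MDA-MB-231 cells, a human triple-negative breast cancer line with mesenchymal features, injected orthotopically into the mammary fat pad, with no drug or other agent. Per the study's methods the hosts were female NOD/SCID/IL2Rγ-null (NSG) mice, which lack mature lymphocytes but keep their own stroma, vessels and myeloid cells, and 3 mice stood behind each zone. Neither the labels nor the methods say whether a core and a margin sample with the same number came from the same tumor. The labels give the 2 zones no difference but position, and everything reported below concerns 1 cell line. No step that parts mouse from human reads is stated.

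Entry into mitosis is driven by CDK1 bound to B-type cyclins, and exit by the anaphase-promoting complex (APC/C), which with CDC20 marks cyclin B and securin for destruction once the spindle checkpoint is satisfied. Most of the genes for this machinery are transcribed only late in the cell cycle, under the B-MYB/MuvB and FOXM1 factors, and are repressed in resting cells by the DREAM complex. In bulk tumor tissue their summed messenger RNA is commonly read as a measure of how many cells are dividing, although fewer dividing cells and less RNA per dividing cell cannot be told apart.

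The promoters of these genes carry the letters of that control. RefSeq promoter windows (GRCh38.p14, from 250 bases before to 50 bases after the start) matched 37 of the 44 genes, and 5 are printed below without the bases after the start, because they span from the motif-rich (CCNB2, TOP2A) to the motif-free (CENPE) and include PLK1 and MKI67, whose levels are described further on. Capitals mark the CCAAT box, the site of NF-Y, as CCAAT or on the other strand ATTGG, and the cell cycle genes homology region (CHR), the contact of MuvB complexes, searched as TTTGAA or TTCGAA and on the other strand as TTCAAA or TTCGAA.
PLK1, chr16:23678639-23678888, plus strand: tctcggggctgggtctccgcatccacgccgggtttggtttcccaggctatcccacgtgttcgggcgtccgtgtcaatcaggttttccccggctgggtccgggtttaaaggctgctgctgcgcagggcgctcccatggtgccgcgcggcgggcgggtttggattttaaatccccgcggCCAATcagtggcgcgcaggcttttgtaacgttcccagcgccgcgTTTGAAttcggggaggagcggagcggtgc
MKI67, chr10:128126424-128126673, minus strand: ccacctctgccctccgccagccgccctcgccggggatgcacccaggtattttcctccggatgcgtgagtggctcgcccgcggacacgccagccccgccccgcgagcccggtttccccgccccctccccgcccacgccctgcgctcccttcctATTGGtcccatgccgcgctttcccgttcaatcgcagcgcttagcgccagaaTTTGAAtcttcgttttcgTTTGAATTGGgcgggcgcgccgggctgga
CCNB2, chr15:59104896-59105145, plus strand: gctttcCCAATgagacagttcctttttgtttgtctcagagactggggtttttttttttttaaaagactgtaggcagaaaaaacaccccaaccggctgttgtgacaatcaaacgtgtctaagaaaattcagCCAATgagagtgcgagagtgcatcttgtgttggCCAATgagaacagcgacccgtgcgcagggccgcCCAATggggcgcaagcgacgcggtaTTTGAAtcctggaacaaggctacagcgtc
TOP2A, chr17:40417897-40418146, minus strand: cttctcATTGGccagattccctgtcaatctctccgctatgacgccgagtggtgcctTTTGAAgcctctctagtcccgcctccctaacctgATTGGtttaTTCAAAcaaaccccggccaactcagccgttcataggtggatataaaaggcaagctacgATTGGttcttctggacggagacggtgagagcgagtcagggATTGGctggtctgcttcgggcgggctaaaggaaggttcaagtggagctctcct
CENPE, chr4:103198344-103198593, minus strand: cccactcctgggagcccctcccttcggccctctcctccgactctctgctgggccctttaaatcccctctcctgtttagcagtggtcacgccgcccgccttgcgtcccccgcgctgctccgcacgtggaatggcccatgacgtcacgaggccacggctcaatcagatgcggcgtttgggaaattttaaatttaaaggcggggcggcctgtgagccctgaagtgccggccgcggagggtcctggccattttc

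In PLK1, MKI67 and CCNB2 the CHR nearest the start began 29 bases before it, and in MKI67 it overlapped an inverted CCAAT box. TOP2A held 4 CCAAT letters and 2 CHR matches, the nearest of which began 151 bases before the start. Across the 37 windows a CHR was present in 27 (73.0%) against 16.6% of the 27305 human promoter windows of the same length, and CCAAT was present in 29 (78.4%) against 35.7%. Both occurred together in 23 windows (62.2%), against 6.58% of all windows, and 20 windows (54.1%) held at least 2 CCAAT letters against 11.3%. The TATA letters TATAAA were found in 3 windows (8.11%) and in 11.95% of all windows. These are matches of letters in a window and not sites of binding. Only the first listed window of each gene was searched, so letters near another start would be missed.

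Before the levels are given, the state of the 6 libraries needs stating. Values were deposited as TPM, a length-corrected share of a library's transcripts, so the read depth is unknown. The third margin sample (TM 3) stood apart in its processing: 4 of the 259 loci assembled beyond the annotation were above 0 in it, against 203 to 214 in the other 5 samples, and its column summed to 994381 where the other 5 summed to 1000000. All 7 of 7 genes listed as high in MDA-MB-231 cells passed the filter on low values. They summed to 5311 to 6832 TPM, VIM alone holding 3797 to 5283 TPM. Of 6 genes listed as low or absent in this line, ESR1, PGR and CDH1 stayed at 0.36 TPM or lower. The other 3 passed the filter, with ERBB2 at 22.3 to 40.7 TPM, EPCAM at 3.66 to 6.02 TPM and GATA3 at 2.02 to 3.9 TPM. Transcripts assigned to skeletal muscle (11 of 12 markers found) summed to 4.23 to 8.11 TPM in TC and to 177, 478 and 2.79 TPM in TM 1, TM 2 and TM 3, with ACTA1, skeletal muscle actin, at 53.7, 164.6 and 0.87 TPM in those 3. Fibroblast markers (10 of 10 found, 5 passing the filter) summed to 67.9 to 229.9 TPM in TC and to 483, 1025 and 91.2 TPM in TM, so both lists were high in TM 1 and TM 2 and low in TM 3. COL1A1 made up most of the fibroblast sum, at 44.7 to 160.9 TPM in TC and 335, 698 and 62.9 TPM in TM. LUM, PDGFRA and THY1 stayed at 0.38 TPM or lower. Macrophage markers summed to 96.02 to 109.6 TPM over all 6 samples, endothelial markers to 4.17 to 7.77 TPM, erythroid markers to 0.29 to 6.93 TPM and adipocyte markers to 0.34 to 0.94 TPM. CD68 alone held 84.8 to 94.2 TPM of the macrophage sum, while PTPRC, CD14 and ITGAM stayed at 0.73 TPM or lower. Between these lay ADGRE1 at 7.92 to 10.49 TPM, CSF1R at 1.99 to 9.12 TPM and AIF1 at 0.57 to 5.14 TPM. CSF1R and AIF1 were highest in TM 2. At 0 in every sample were 1 of 8 macrophage, 1 of 8 endothelial, 2 of 6 adipocyte and 2 of 6 erythroid markers. The share of TPM from mitochondrially encoded genes was 6.08% to 8.82% in TC and 9.23% to 11.1% in TM. What part any of these has in the values below was not tested.

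Transcripts of the whole machinery were detected. All 44 genes reached 1 TPM or more in 3 or more samples, the filter that 13861 genes passed. Mean levels ran from 2.05 TPM for HMMR to 555 TPM for UBE2C, with a median of 29.3 TPM. UBE2C, PTTG1, BUB3 and CCNB1 averaged over 100 TPM, and HMMR, CENPE, ASPM, TTK, CKAP2L and CDC25C under 10 TPM. UBE2C alone, the ubiquitin-conjugating enzyme of the APC/C, made up 19.3% to 26.2% of the summed TPM of the 44. That sum reached 2396, 2210 and 2436 TPM in the core samples and 3110, 2791 and 2090 TPM in the margin samples, a mean of 2347 ± 121 (SD, n = 3) against 2664 ± 522 (SD, n = 3). The groups overlapped: TM 1 and TM 2 were above every core sample and TM 3 was below all of them, and the spread within TM was larger than the distance between the means.

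Core and margin were then compared gene by gene with limma on log2(TPM + 1), and every difference below is TC minus TM on that scale, so that a negative value means less in the core. Across all 13861 genes the 6 samples gave 19 calls at a Benjamini-Hochberg adjusted p under 0.05 (0.137%), and 0 of the 44 mitosis and spindle genes were among them, the smallest adjusted p by limma being 0.148, for CDC25B. At an unadjusted p under 0.05, 4 of the 44 were lower in TC (9.09%: CDC25B, AURKB, KIF20A and INCENP), where 14.2% of all genes tested were, and 0 were higher, where 1.93% of all genes were. Every core value lay below every margin value for 2 of the 44 (4.55%: CDC25B and KIF20A) against 18.9% of all genes, and above it for 0 against 3.28%. The differences were negative for 30 of the 44 genes and positive for 14, where 9283 of the 13861 genes tested were negative. Their median was -0.17 beside -0.14 for all genes tested, and 23 lay below and 21 above that all-gene median. The 95% interval of the difference included 0 for 40 of the 44, and the standard error exceeded the size of the difference for 24.

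**Figure D1:**
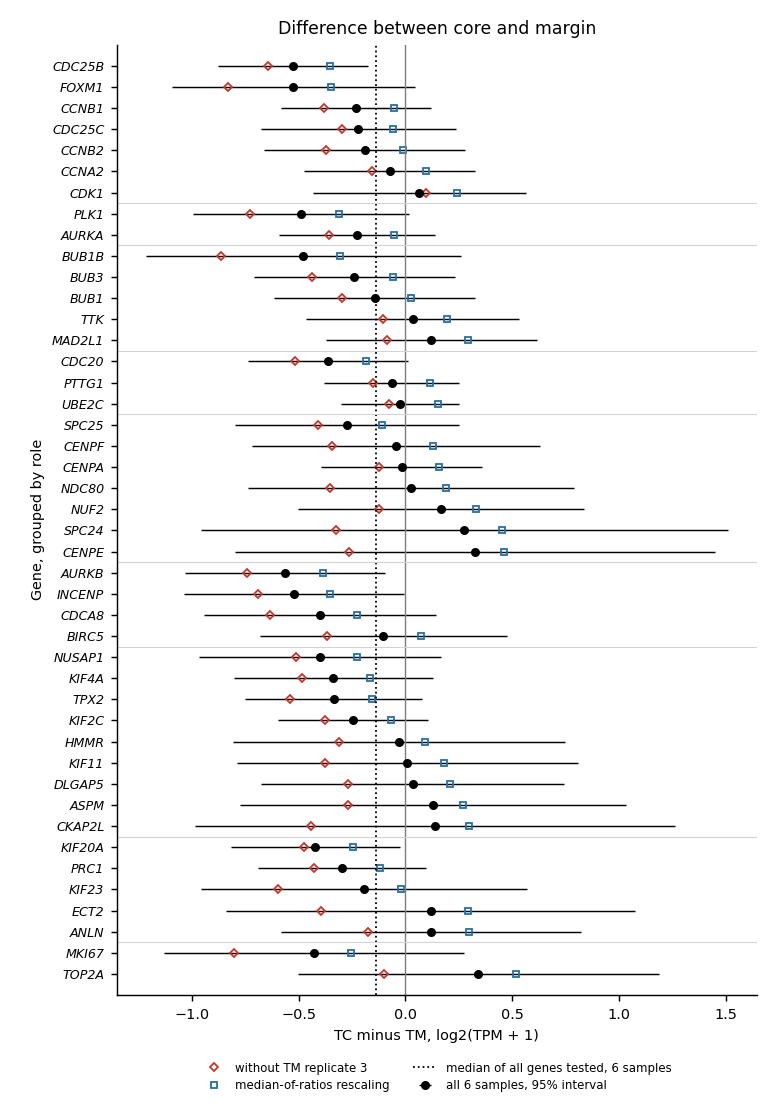
Difference between core and margin (TC minus TM, log2(TPM + 1), x axis) for each of the 44 genes grouped by role, with its 95% interval over all 6 samples (black), without TM replicate 3 (red diamonds) and after median-of-ratios rescaling (blue squares); the dotted line is the median of all genes tested, -0.14. 40 of the 44 black intervals cross 0, 43 of the 44 red diamonds lie left of 0, and the blue squares lie left of 0 for 22.

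The margin samples themselves were split. TM 3 was lower than both TM 1 and TM 2 for 42 of the 44 genes (95.5%), a pattern held by 47.1% of all genes tested, with CDK1 and KIF20A as the exceptions. It was lower than every core sample for 24 of them (54.5%, against 25.2% of all genes). TM 1 was the highest of the 6 samples for 28 genes (63.6%, against 28.3%) and TM 2 for 11 (25%, against 19.1%), while TM 3 was the highest for 0, against 19.6% of all genes. In TM 1 and TM 2 together, 21 of the 44 genes were above every core sample (47.7%, against 31.1% of all genes), and for these 21 TM 3 lay within the core range in 12, below it in 7 and above it in 2. The difference between TM 3 and the mean of TM 1 and TM 2 had a median of -0.61 over the 44 genes, ranging from -1.80 for SPC24 to 0.088 for CDK1, beside -0.10 over all genes.

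With TM 3 left out, which leaves 2 margin samples, 43 of the 44 differences were negative, CDK1 being the exception. The share of all genes with a negative difference was not counted in that fit. At an unadjusted p under 0.05, 18 genes were lower in TC (40.9%), beside 16.8% of all genes tested. The median difference of the 44 was -0.37, beside -0.19 for all genes. Leaving out TM 1 or TC 2 instead gave 1 of 44 (2.27%) each, beside 9.73% and 9.94% of all genes, with medians of -0.014 and -0.051, so the count rested on which sample was left out. The 18 genes without TM 3 were FOXM1, PLK1, AURKA, AURKB, INCENP, CDCA8, CDC25B, CCNB1, CDC20, BUB1B, BUB3, KIF23, KIF20A, PRC1, KIF2C, KIF4A, TPX2 and MKI67. Of the 44, 0 reached an adjusted p under 0.05 in limma here as well, the smallest being 0.0774, for FOXM1. Rescaling all 6 libraries by median-of-ratios factors moved the median of all genes from -0.14 to 0.021 and that of the 44 from -0.17 to 0.0079, and 1 of the 44 (2.27%: CDC25B) was then lower in TC at an unadjusted p under 0.05, against 7.65% of all genes.

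**Figure D2:**
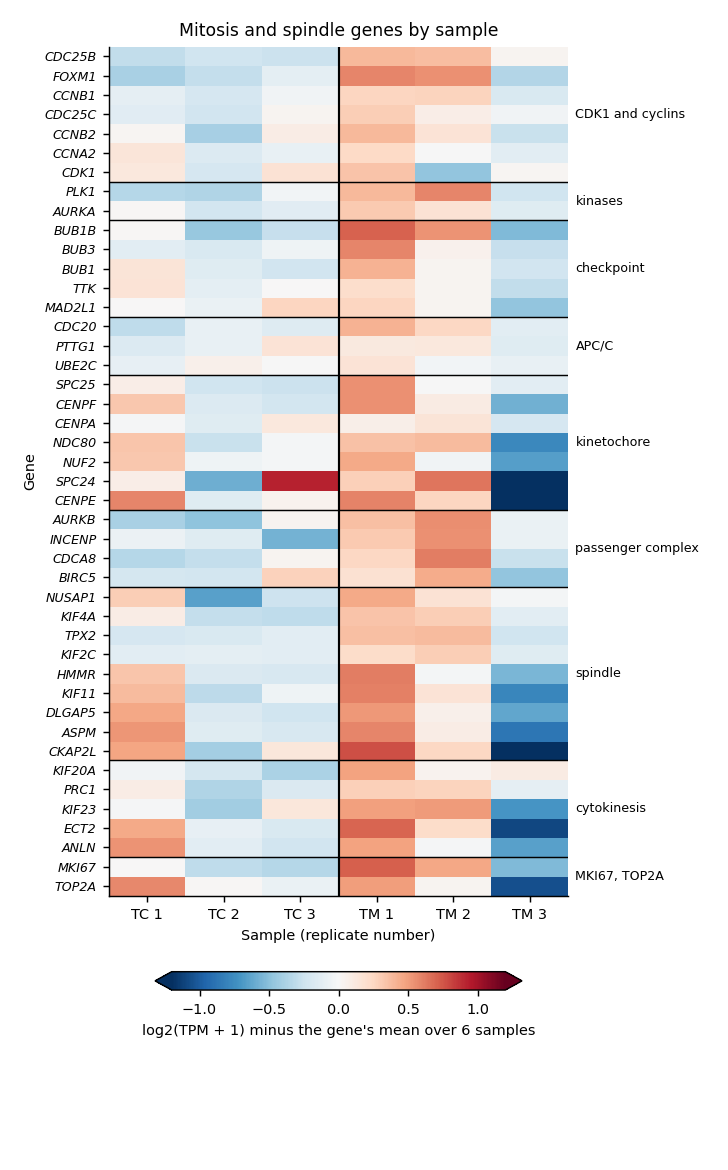
Level of each of the 44 genes (rows, grouped by role) in each of the 6 samples (columns), as log2(TPM + 1) minus the gene's mean over the 6 samples; red is above and blue below that mean, and the color scale saturates at its ends. TM 1 holds the highest value for 28 genes and TM 3 the lowest for 24.

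Of CDK1, its cyclins and their control, 1 of 7 genes was past an unadjusted p of 0.05, where 14.2% of all genes tested were lower. It was CDC25B, the phosphatase that starts CDK1 activation (chr20:3786772-3806121, GRCh38), which measured 26.5, 27.7 and 27.3 TPM in TC and 43.3, 42.7 and 33.5 TPM in TM. Its groups did not overlap, with a tight core and TM 3 the lowest of the margin, and the difference was -0.53 with a standard error of 0.15 (95% interval -0.88 to -0.18, limma adjusted p = 0.148). FOXM1, the transcription factor of late cell cycle genes (chr12:2857681-2877155), stood at 46.1, 49.7 and 55.8 TPM in TC and at 91.5, 89.2 and 47.4 TPM in TM. TM 1 and TM 2 were well above the core and TM 3 inside the core range, so that a difference of -0.53 carried a standard error of 0.25 (limma adjusted p = 0.354), and it was -0.83 without TM 3.

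Cyclin B1, CCNB1, which binds CDK1 at mitotic entry, gave 108.6, 101.9 and 114.0 TPM in TC and 140.6, 141.2 and 103.0 TPM in TM. Here too TM 3 alone overlapped the core, with a difference of -0.23 ± 0.15 (SE) that became -0.38 without it. CDK1 was at 72.5, 57.6 and 75.0 TPM in TC and at 84.7, 47.6 and 67.6 TPM in TM, the only gene of the 44 with its lowest value in TM 2. Its groups overlapped throughout (0.065, 95% interval -0.43 to 0.56). CCNA2, the cyclin of S phase and early mitosis, showed 22.0, 17.6 and 18.6 TPM against 23.6, 19.8 and 18.1 TPM, also interleaved, at -0.074 (95% interval -0.47 to 0.33). CCNB2 and CDC25C, a second B-type cyclin and a second CDK1 phosphatase, had differences of -0.19 and -0.22 with overlapping groups. The ratio of CCNB1 to CDK1, computed from TPM, came to 1.499, 1.77 and 1.52 in the core and to 1.66, 2.96 and 1.52 in the margin, and 5 of the 6 samples lay close together and TM 2 stood out.

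**Figure D3:**
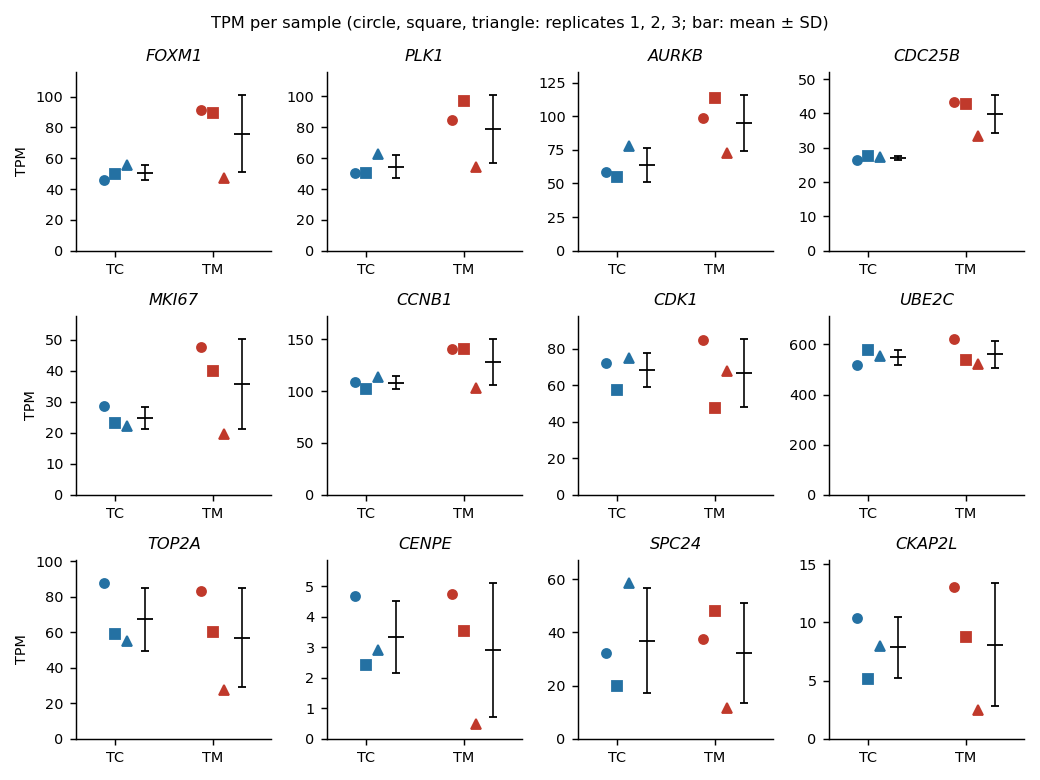
TPM per sample (y axis, linear from 0) in TC and TM for 12 of the 44 genes; circle, square and triangle are replicates 1, 2 and 3 and the bar gives the mean ± SD (n = 3). For FOXM1, PLK1, AURKB, MKI67 and CCNB1 the margin circle and square lie above all core points while the triangle lies among or below them, and for UBE2C the points of both zones mix between 518 and 621 TPM.

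Among the mitotic kinases, PLK1, which acts on centrosomes, kinetochores and cytokinesis (chr16:23677656-23690367), measured 50.6, 50.1 and 62.9 TPM in TC and 84.5, 97.2 and 54.5 TPM in TM. The TM mean was 1.44 times the TC mean, yet TM 3 lay among the core samples (-0.49 ± 0.22 (SE), limma adjusted p = 0.326), and without TM 3 the difference was -0.73. AURKA, the kinase of the spindle poles, gave 52.3, 44.1 and 47.1 TPM in TC and 64.6, 58.5 and 46.7 TPM in TM, with the same sample overlapping and a smaller difference of -0.23 ± 0.16 (SE).

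The chromosomal passenger complex corrects faulty kinetochore attachments and then moves to the midzone. Of its 4 genes, 2 were past an unadjusted p under 0.05, where 14.2% of all genes tested were lower. Whether this role differed from the rest of the 44 was not tested. AURKB, its kinase (chr17:8204733-8210600), measured 58.2, 54.5 and 78.2 TPM in TC and 98.5, 113.5 and 72.7 TPM in TM, with the third sample of each zone crossing. The difference was -0.56 ± 0.20 (SE) at a limma adjusted p of 0.228, the most negative of the 44 differences. INCENP, the scaffold (chr11:62123973-62153163), showed 15.5, 14.8 and 10.8 TPM in TC and 20.6, 24.4 and 15.5 TPM in TM, where TM 3 was level with the highest core sample (-0.52 ± 0.22 (SE), limma adjusted p = 0.303). CDCA8, the targeting subunit borealin, differed by -0.40. BIRC5, the survivin subunit, was at 50.4, 50.1 and 71.3 TPM against 66.7, 80.2 and 41.8 TPM, with the lowest of all values in TM 3 and a difference of -0.10 (95% interval -0.68 to 0.47). The median over these 4 genes was -0.46, and -0.66 without TM 3. The ratio of AURKB to INCENP was 4.77, 4.64 and 4.68 in TM and 3.75, 3.69 and 7.27 in TC, steady in the margin and unsteady in the core.

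For the spindle checkpoint, which holds anaphase until every kinetochore is attached, 0 of 5 genes passed an unadjusted p of 0.05 and 2 did so without TM 3. The shares of all genes tested that were lower at that threshold were 14.2% and 16.8%. BUB1B, a subunit of the inhibitor of CDC20, measured 18.4, 13.0 and 14.8 TPM in TC and 30.3, 26.97 and 12.3 TPM in TM. TM 3 was the lowest of the 6 samples while TM 1 and TM 2 were the highest, giving -0.48 ± 0.32 (SE) over all samples and -0.86 without TM 3, the most negative of the 44 values without that library. BUB3, the partner of BUB1 and BUB1B and the most abundant checkpoint transcript, gave 155.3, 149.2 and 163.8 TPM in TC and 254.8, 175.9 and 139.4 TPM in TM, with the same order of margin samples (-0.24 ± 0.21 (SE)). TTK, the kinase that starts the checkpoint, was at 8.34, 6.72 and 7.39 TPM against 8.69, 7.56 and 5.79 TPM, with mixed groups and a difference of 0.034 (95% interval -0.47 to 0.53). BUB1 and MAD2L1 differed by -0.14 and 0.12.

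Genes of APC/C activation and its substrates included the most abundant transcripts of the 44. CDC20, the APC/C activator, measured 75.3, 87.9 and 83.7 TPM in TC and 125.3, 111.1 and 85.5 TPM in TM. TM 3 lay below the highest core sample, and the difference of -0.36 ± 0.16 (SE) had a limma adjusted p of 0.325. UBE2C was at 518, 578 and 552 TPM in TC and at 621, 540 and 521 TPM in TM, and PTTG1, securin, at 219, 231 and 276 TPM against 266, 268 and 223 TPM. In both genes the zones interleaved and the highest sample was at most 1.26 times the lowest. Their differences were -0.026 (95% interval -0.30 to 0.25) for UBE2C and -0.063 (95% interval -0.38 to 0.25) for PTTG1.

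Kinetochore and centromere genes were spread on both sides, with 3 differences below 0 and 4 above, a median of 0.025 and 0 of 7 past an unadjusted p of 0.05. Without TM 3 the median was -0.33, all 7 differences were below 0, and again 0 were past that threshold. The shares of all genes tested that were lower were 14.2% with all samples and 16.8% without TM 3. NDC80, the microtubule-binding subunit of the complex of that name, measured 15.6, 9.90 and 11.9 TPM in TC and 15.8, 16.1 and 6.72 TPM in TM. Its partner SPC25 showed 13.7, 10.8 and 10.7 TPM against 19.3, 12.9 and 11.7 TPM, and CENPE, the motor that carries chromosomes to the metaphase plate (chr4:103105806-103198409), 4.68, 2.42 and 2.90 TPM against 4.73, 3.52 and 0.49 TPM. In NDC80 and CENPE TM 3 was the lowest sample, by 9.65-fold from highest to lowest in CENPE, and in SPC25 it was inside the core range. The differences were 0.025, -0.28 and 0.32, in that order, and the standard error of 0.49 for CENPE exceeded its difference. As proteins, the 4 subunits of the NDC80 complex are thought to work in equal numbers, which RNA levels do not measure. In TPM, the NUF2 to NDC80 ratio was between 0.677 and 1.09 in all 6 samples. The TPM ratio of SPC24 to SPC25 ranged more widely, at 2.36, 1.85 and 5.50 in the core and 1.94, 3.74 and 0.977 in the margin. SPC24 stood at 32.3, 19.9 and 58.6 TPM in TC and at 37.4, 48.0 and 11.4 TPM in TM. CENPA, CENPF, NUF2 and SPC24 differed by -0.017, -0.042, 0.17 and 0.28 between zones.

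Spindle motors and assembly factors numbered 9, and their differences ran from -0.40 for NUSAP1 to 0.14 for CKAP2L. TPX2, the activator of AURKA on the spindle, measured 70.8, 71.7 and 74.7 TPM in TC and 105.1, 106.2 and 68.8 TPM in TM. The core was tight and TM 1 and TM 2 nearly equal above it, with TM 3 below all core samples (-0.34 ± 0.18 (SE), and -0.54 without TM 3). KIF4A, a chromosome-bound kinesin, gave 17.5, 13.2 and 13.1 TPM in TC and 21.0, 20.3 and 14.96 TPM in TM (-0.34 ± 0.20 (SE)). Reads of the near-identical retrocopy KIF4B may be shared with it, and how far this affects its value was not tested. KIF11, the motor that pushes spindle poles apart, was at 25.5, 15.3 and 18.7 TPM against 30.0, 21.7 and 10.9 TPM, spread over both zones with TM 3 the lowest, at a difference of 0.0095 (95% interval -0.79 to 0.81). KIF2C, which depolymerizes microtubules at centromeres, had an unusually even core, with 40.0 ± 0.18 TPM (SD, n = 3), and differed by -0.25. HMMR, DLGAP5 and ASPM, which organize spindle microtubules and poles, differed by -0.028, 0.034 and 0.13, and each of them had its lowest value in TM 3.

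In cytokinesis, KIF20A, which brings passenger proteins to the midzone (chr5:138178719-138187715), was the second gene with separate groups, at 36.4, 32.3 and 28.6 TPM in TC and 52.9, 38.7 and 40.2 TPM in TM. TM 1 stood above the rest while TM 2 and TM 3 sat just above the core (-0.42 ± 0.17 (SE), limma adjusted p = 0.281). PRC1, which bundles midzone microtubules, measured 64.5, 47.2 and 53.7 TPM in TC and 74.5, 73.3 and 56.1 TPM in TM, with TM 3 within the core range (-0.30 ± 0.17 (SE)). ECT2, the exchange factor that activates RhoA at the cleavage furrow, gave 35.7, 24.1 and 22.6 TPM against 42.3, 30.1 and 11.6 TPM, and TM 3 was again the lowest sample (0.12 ± 0.42 (SE)). KIF23, the kinesin of the centralspindlin complex, and the actin scaffold ANLN differed by -0.19 and 0.12.

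The 2 usual markers of dividing cells had differences of opposite sign. MKI67 (chr10:128096659-128126385), whose protein coats mitotic chromosomes, measured 28.8, 23.0 and 22.3 TPM in TC and 47.6, 39.8 and 19.5 TPM in TM. TOP2A (chr17:40388516-40417950), the topoisomerase that untangles sister chromatids, measured 87.5, 59.0 and 55.2 TPM in TC and 83.0, 59.9 and 27.6 TPM in TM. TM 3 was the lowest sample for both, but TM 1 and TM 2 exceeded every core sample only for MKI67. The differences were -0.43 ± 0.31 (SE) for MKI67 and 0.34 ± 0.37 (SE) for TOP2A, each with a 95% interval that included 0, and without TM 3 they were -0.80 and -0.098.

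Where each gene fell along these differences went with the makeup of its transcript, a property the choice of genes did not use. Across the 44 genes, which share the same 6 libraries and are not independent replicates, the difference between TC and TM had a Pearson r of -0.68 and a Spearman rho of -0.70 with the median GC content of the gene's transcripts, beside -0.23 and -0.30 across 13772 genes tested, and without TM 3 the 44 genes gave -0.56 and -0.54. The 22 genes of lower GC (35.4% to 43.3%), a split made after their values were seen, had a median difference of 0.029 with 9 of 22 below 0, and the 22 of higher GC (45.0% to 59.9%) a median of -0.32 with 21 of 22 below 0. All 4 genes past an unadjusted p of 0.05 were in the higher-GC group, as were 15 of the 18 past it without TM 3. These counts restate the differences behind the correlation and add no separate evidence. The share of all genes past that threshold was not counted by GC. SPC24, at 53.4% GC, was the exception with a difference of 0.28. Over the 44 genes the difference of TM 3 from TM 1 and TM 2 had an r of 0.29 (rho 0.32) with GC content. With log2 transcript length its r was -0.56 (rho -0.57). Over all genes the r was 0.14 (rho 0.19) with GC content and -0.018 (rho -0.063) with length. UBE2C and PTTG1, with the shortest transcripts of the 44 at 705 and 895 bases, had values of -0.15 and -0.26, and MKI67 and CENPE, with the longest at 12048 and 8260 bases, -1.12 and -1.77. The lowest value, -1.80, belonged to SPC24, whose transcript of 2315 bases is far shorter. After a fitted trend with length and GC was removed from each sample, 3 of the 44 (6.82%) were lower in TC at an unadjusted p under 0.05, beside 11.3% of all genes, and the median of the 44 was -0.23, beside -0.13. What part transcript makeup has in the differences was not tested.

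**Figure D4:**
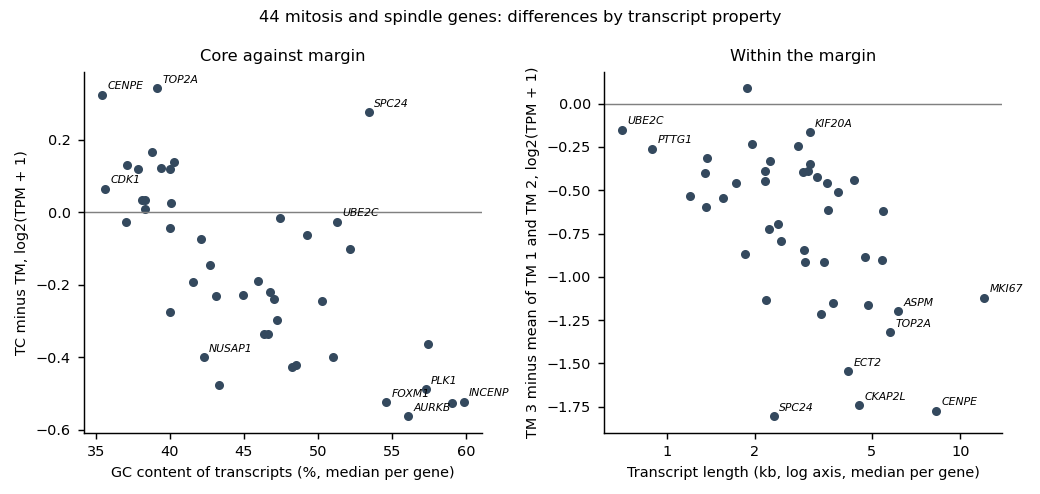
Left, difference between core and margin (TC minus TM, log2(TPM + 1)) of the 44 genes against the median GC content of their transcripts in percent; right, TM 3 minus the mean of TM 1 and TM 2 against transcript length in kb on a log axis. The left cloud slopes down (r = -0.68) from CENPE and TOP2A above 0 to AURKB and INCENP below -0.5, and the right cloud slopes down (r = -0.56) from UBE2C to CENPE.

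The promoter letters shown above were set beside the same differences. A CHR was present in 9 of the 14 genes with a promoter window that were lower in TC without TM 3 and in 18 of the other 23, and CCAAT in 11 of 14 and 18 of 23. The searched windows with neither belonged to CENPE, CDC25B, CDC25C and KIF2C, whose differences were 0.32, -0.53, -0.22 and -0.25. This does not show that these genes lack the letters, because other starts were not searched. TOP2A, with 4 CCAAT letters and 2 CHR matches, had a difference of 0.34. The standard errors of CENPE (0.49) and TOP2A (0.37) exceeded their differences. Whether the letters go with the differences was not tested.

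Neighboring parts of the cell cycle were read from the same fit. Of 40 DNA replication genes, 18 were lower in TC at an unadjusted p under 0.05 and 1 was higher, with a median of -0.44, against the 4 of 44 and -0.17 of the mitosis and spindle genes and 14.2% and -0.14 of all genes. POLE, the leading-strand polymerase, measured 12.2, 9.70 and 13.3 TPM in TC and 35.1, 28.9 and 24.1 TPM in TM (-1.25 ± 0.20 (SE), limma adjusted p = 0.0658), and GINS4, a helicase subunit, 9.87, 8.95 and 8.27 TPM against 17.0, 14.9 and 16.6 TPM (-0.77 ± 0.17 (SE), limma adjusted p = 0.0926). Both had separate groups, as genes chosen for the smallest p of their list over all 6 samples are likely to have. Of 62 other mitotic genes, 17 were lower and 0 higher (median -0.24), led by the kinesin KIF18B at 9.82, 9.61 and 8.35 TPM against 22.6, 17.5 and 18.5 TPM and by KNTC1, a kinetochore recruiter of dynein, at 11.2, 9.37 and 11.99 TPM against 27.5, 18.8 and 28.2 TPM. Of 17 APC/C subunits and regulators, 5 were lower and 0 higher (median -0.097), led by ANAPC2 at 13.3, 12.1 and 11.8 TPM against 24.6, 23.2 and 30.7 TPM and by ANAPC7 at 19.7, 27.7 and 23.3 TPM against 51.6, 38.7 and 41.4 TPM. These genes too were chosen for the smallest p of their lists. None of these lists held a gene at an adjusted p under 0.05 in limma, where the smallest values were 0.0658, 0.0813 and 0.0693 for the replication, other mitotic and APC/C lists. Without TM 3 the counts lower in TC were 22, 21 and 6, where 16.8% of all genes were lower, and after median-of-ratios rescaling they were 5, 9 and 3, where 7.65% were. The differences between these lists and the 44 genes were not tested.

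**Figure D5:**
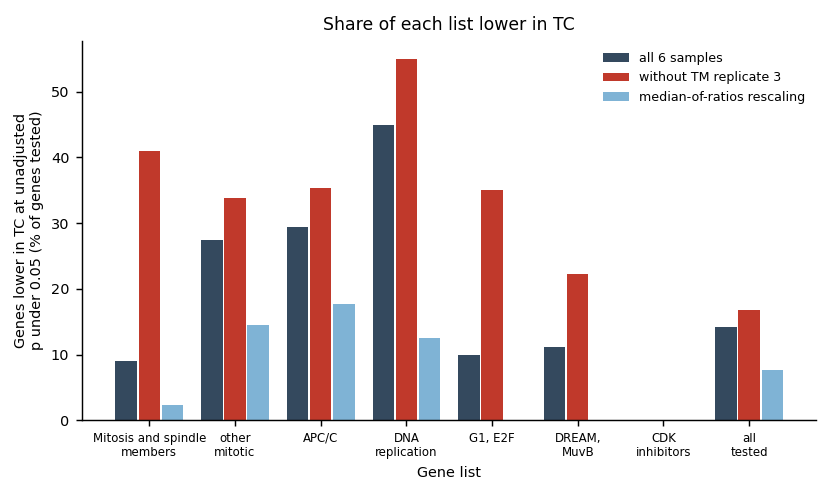
Share of the tested genes of each list (y axis, percent, from 0) that was lower in TC at an unadjusted p under 0.05, over all 6 samples (dark), without TM replicate 3 (red) and after median-of-ratios rescaling (light blue), with all genes tested at the right. The 44 mitosis and spindle genes stand at 9.09% over all samples and 40.9% without TM 3, and DNA replication at 45% over all samples.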

How the data were processed

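Total RNA from xenograft core (TC) and margin (TM) was made into TruSeq libraries. Per the labels' processing notes the tools were HISAT2, StringTie and RSEM with the hg38 build, and their versions and the gene annotation are not given in the sources used here. The TPM values were deposited by the authors as 1 matrix of 60930 features in 6 samples, of which 259 were assembled loci left out of the tests. No step that parts mouse from human reads is stated. The study used DESeq2 on counts, which TPM does not allow, and TPM keeps no read depth, so no counting interval is given.

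Genes that reached 1 TPM in 3 or more samples (13861) were tested on log2(TPM + 1) with limma 3.58.1 in R 4.3.3 (empirical Bayes with a mean-variance trend, two-sided, Benjamini-Hochberg over all genes tested). The pseudocount of 1 understates changes of low genes, and p-values measure the spread between these samples. Means, ratios and motif matches were computed in Python 3.11.15 with pandas 2.3.3. Gene positions, transcript length and GC came from GENCODE release 29 (median over basic transcripts, 13772 genes tested), and promoters from RefSeq. The limma script was tested on simulated data.

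The 44 genes and the other lists were chosen with earlier results of these data known. Every sample's value is given for MKI67, TOP2A, CDK1, CCNA2, CCNB1, PLK1, AURKA, AURKB and FOXM1, and in each role for the 2 genes with the smallest and the 1 with the largest unadjusted p, and for the 2 smallest of each other list. Values shown beyond this rule, the ratios, the printed promoters and the GC split were chosen after values were seen. Alternatives were another pseudocount, other filters, quantile and median-of-ratios scaling, leaving out mitochondrially encoded genes, a replicate block, no variance trend, robust empirical Bayes, inclusion of assembled loci, removal of a length and GC trend, and leaving out each sample.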

Additional observations from a re-analysis of the deposited data

How the results depend on the processing

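The median difference of the 44 genes was -0.167, and it moved by less than the spread between replicates, 0.377, under every alternative. That spread takes in TM 3 and exceeds the size of the median difference itself, so this is no measure of stability. The median difference was 0.0079 after median-of-ratios rescaling, -0.014 without TM 1 and -0.375 without TM 3. Genes called over the whole table (19) became 7 with a pseudocount of 0.1, 1 with no filter, 4 with quantile normalization, 6 with median-of-ratios rescaling, 12 with no variance trend, 47 with robust empirical Bayes and 8 with the length and GC trend removed, and 1 to 17 with each sample left out; among the 44 the count stayed at 0 throughout. The 4 of the 44 lower in TC became 2 with quantile normalization (8.11% of all genes were lower), 1 with median-of-ratios rescaling (7.65%), 7, or 15.9%, without mitochondrially encoded genes (16.98%) and 2 with no variance trend (13.6%), and 1 (without TC 2 or TM 1) to 18 (without TM 3) with each sample left out. In the other cell cycle lists 45 of 156 genes passed an unadjusted p of 0.05 in either direction, where 14.2% of all genes were lower and 1.93% higher. The count was 29 with quantile normalization (8.11% of all genes lower and 5.32% higher) and 21 with median-of-ratios rescaling (7.65% and 5.76%). With each sample left out it ran from 25 without TM 2 (11.7% and 1.98%) to 60 without TM 3 (16.8% and 2.46%). Scaling moved the balance of all genes from 1972 lower and 268 higher to 1061 and 799 under median-of-ratios rescaling. Deviations from the zone means correlated at 0.21, -0.12 and -0.17 for samples of the same number and at -0.232 to 0.317 for samples of unlike number. With 3 samples a zone these values cannot tell whether same-numbered samples share a tumor. With a replicate block 1 gene was called, 0 of the 44, and 3 of the 44 were lower in TC (12.1% of all genes). Among the 27 genes named by the rule, signs turned for quantile-normalized CCNA2 (0.11) and BIRC5 (0.001), for median-of-ratios CCNA2 (0.097), BIRC5 (0.075), UBE2C (0.15) and PTTG1 (0.12), without mitochondrially encoded genes for TTK (-0.011), NDC80 (-0.021) and KIF11 (-0.039), and with length and GC removed for CDK1 (-0.23), TTK (-0.13), NDC80 (-0.16), KIF11 (-0.093) and ECT2 (-0.012). Over all 44 genes, 30 differences were below 0 in the main fit, where 9283 of 13861 genes tested were, and 24, 22, 34 and 37 under these 4 settings. The median of all genes under the 4 settings was 0.014, 0.021, -0.18 and -0.13. For the same 27 genes, with each sample left out, signs turned within the ranges -0.154 to 0.255 for CDK1, -0.163 to 0.027 for CCNA2, -0.367 to 0.095 for BIRC5, -0.077 to 0.049 for UBE2C, -0.161 to 0.004 for PTTG1, -0.107 to 0.15 for TTK, -0.353 to 0.221 for NDC80, -0.378 to 0.315 for KIF11, -0.396 to 0.495 for ECT2, -0.098 to 0.678 for TOP2A and -0.266 to 0.705 for CENPE. The causes of these changes were not tested. With 3 samples a zone and depth unknown, small differences cannot be resolved.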

Other observations

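Genes that act before mitosis were read from the same limma fit. Of 20 G1 control and E2F genes tested, 2 were lower in TC at an unadjusted p under 0.05 and 0 were higher, or 10% against 14.2% of all genes tested, with a median difference of -0.27 beside -0.14. E2F4, the E2F that works with the DREAM complex in resting cells, measured 61.0, 64.1 and 67.7 TPM in TC and 94.0, 92.5 and 86.3 TPM in TM, with separate groups (-0.49 ± 0.12 (SE), limma adjusted p = 0.106). CCNE1, the cyclin of S phase entry, gave 6.34, 5.98 and 7.06 TPM against 8.75, 10.7 and 9.21 TPM, also separate. CCND2 was listed at 0 in all 6 samples. Of the 9 DREAM and MuvB genes, 1 was lower (11.1%, against 14.2% of all genes) and 0 were higher. The lower gene was NFYC, a subunit of the CCAAT-binding factor, at 29.8, 37.8 and 32.7 TPM against 43.7, 49.95 and 45.0 TPM (-0.46 ± 0.15 (SE)). RBBP4, a MuvB subunit, differed by -0.23 with an unadjusted limma p of 0.154. These 4 genes were chosen for the smallest p of their lists.

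Of 8 CDK inhibitors and quiescence genes tested, 0 were lower and 1 was higher in TC, where 1.93% of all genes were higher, with a median of 0.17 beside -0.14. After median-of-ratios rescaling 2 were higher, where 5.76% of all genes were, with a median of 0.35 beside 0.021. The difference between this list and other genes was not tested. BTG1, an antiproliferative gene, measured 116.2, 113.7 and 129.9 TPM in TC and 73.6, 108.5 and 76.9 TPM in TM (0.49 ± 0.17 (SE), limma adjusted p = 0.206). CDKN2C, the p18 inhibitor of CDK4 and CDK6, was at 53.5, 54.8 and 55.5 TPM against 45.8, 49.4 and 46.5 TPM, with separate groups and a difference of 0.21. CDKN2A and CDKN2B were listed at 0 in all 6 samples, and BTG2 and GAS1 did not pass the filter on low values.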
